A study of Mus musculus with 4 samples.

Results

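The genes described here are receptors through which circulating hormones and endocannabinoids act on feeding neurons, with the signalling proteins next to 2 of them. They are the leptin receptor Lepr, the insulin receptor Insr with its substrates Irs1 and Irs2, the ghrelin receptor Ghsr, the incretin receptors Glp1r and Gipr, the calcitonin and amylin receptor Calcr, the cannabinoid receptor Cnr1 and the phosphatase Ptpn1. They were taken as listed symbols, each represented by its probe set with the highest mean, and all 10 listed genes were found among the 19938 genes measured. Of these, 9 lay above the filter on low values (a mean of at least 6.59 log2, the 40th percentile) and were tested with 11963 genes in all. Gipr, at a mean level below it, was described only.

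Leptin from fat and insulin from the pancreas report energy stores to the hypothalamus and restrain feeding, whereas ghrelin from the stomach stimulates it. The leptin receptor signals through JAK2 and STAT3, and the insulin receptor through the IRS adaptors and phosphoinositide 3-kinase, and the phosphatase encoded by Ptpn1 acts on both routes. GLP-1, GIP and amylin act on G protein-coupled receptors of class B, and endocannabinoids on the receptor encoded by Cnr1.

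RNA of whole hypothalami from 12 male CDF1 mice (BALB/c × DBA/2) was hybridized to 4 whole-transcript arrays, 1 per group. The control array held pooled RNA of 4 mice given a sham injection of 0.2 ml of Hanks' balanced salt solution under the skin of the flank. The others held RNA of 4 mice given 500000 C26 cells (0.5M), 3 given 1000000 (1M) and 1 given 2000000 (2M). C26 cells are a murine colon cancer line, and mice that bear them are a common model of cachexia, the wasting that accompanies some tumours. Tissue was taken 20 days after injection from animals of 10 to 11 weeks with free access to food. The 2M array is titled as pooled but described as 1 animal. No group had a second array, so the difference of any 1 tumour-bearing array from control has no replicate check.

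Array medians lay between 6.72 and 6.77 log2 and arrays correlated at 0.984 to 0.994. Of 17 measured hypothalamic markers, 16 passed the filter, among them Oxt, Avp, Pmch and Trh. Above control on all 3 tumour-bearing arrays were 10 of the 17 and below it 1, beside 33.4% and 27.3% of all tested genes. The mean levels of the 17 were 8.52 log2 at 0.5M, 8.63 at 1M and 8.54 at 2M, against 8.34 in control. In limma 0 of the 16 were called in the tumour comparison. An unadjusted p below 0.05 was reached by 7 of them, beside 10.8% of all tested genes. Across all tested genes, the central 95% of differences from control ran from -0.32 to 0.32 log2 at 0.5M, from -0.48 to 0.46 at 1M and from -0.41 to 0.40 at 2M. The pituitary hormone genes Gh and Prl stood apart on the 0.5M array. Gh was above control by 4.68 log2 at 0.5M, 0.78 at 1M and 0.72 at 2M, and Prl by 3.85, 0.55 and 0.56. The median over all 8 measured pituitary markers was 0.33, 0.38 and 0.31 log2. Since these are bulk samples, fewer cells of a type and less RNA per cell cannot be told apart for any gene below.

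None of the 9 tested genes passed the test for a difference between tumour-bearing and control hypothalamus. Among all 10 genes, the largest difference on 1 array was 0.42 log2, for Irs2 at 2M. The question behind this comparison was how appetite regulators differ in the hypothalamus of mice with a growing tumour load. In limma, 0 of the 9 genes tested were called in the tumour comparison, where 0.0502% of all tested genes rose and 0% fell, and 0 in the trend with the number of injected cells, where 0% were called. At an unadjusted p below 0.05, limma gave 1 of the 9 (11.1%) in the tumour comparison, Irs2, beside 10.8% of all tested genes. In the trend it gave 2 of the 9 (22.2%), Irs2 and Ghsr, beside 6.52% of all. Standard errors of the 9 differences were 0.09 to 0.16 log2, and the smallest difference among the 6 genes called anywhere on the array was 1.06 log2. Whether 4 arrays could have called differences of the size seen here was not tested, and a p above the threshold does not show that these genes were unchanged.

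By size, 0 of the 10 genes reached 0.5 log2, a 1.41-fold difference, on any array, where 0.853% of tested genes did so at 0.5M, 3.77% at 1M and 2.48% at 2M. At 0.3 log2, a 1.23-fold difference, 4 of the 30 differences qualified. These were Glp1r, below control, at 0.5M (6.39% of tested genes on that array), Irs1 and Irs2, above control, at 1M (18.1%), and Irs2 again at 2M (12%). Irs1, Irs2, Ghsr, Calcr and Cnr1 were above control on all 3 tumour-bearing arrays, 5 of the 9 tested (55.6%), beside 33.4% of all tested genes. None of the 9 was below control on all 3, beside 27.3% of all. The 3 differences share 1 control array, so their common sign is not repeated evidence. The hypothalamic markers also stood above control, with a median of 0.25 log2 over the 17 measured, and their part in the levels of these genes was not tested. The median over the 9 genes was 0.08 log2 at 0.5M, 0.07 at 1M and 0.14 at 2M, beside 0.01, 0.04 and 0.01 for all tested genes.

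**Figure D1:**
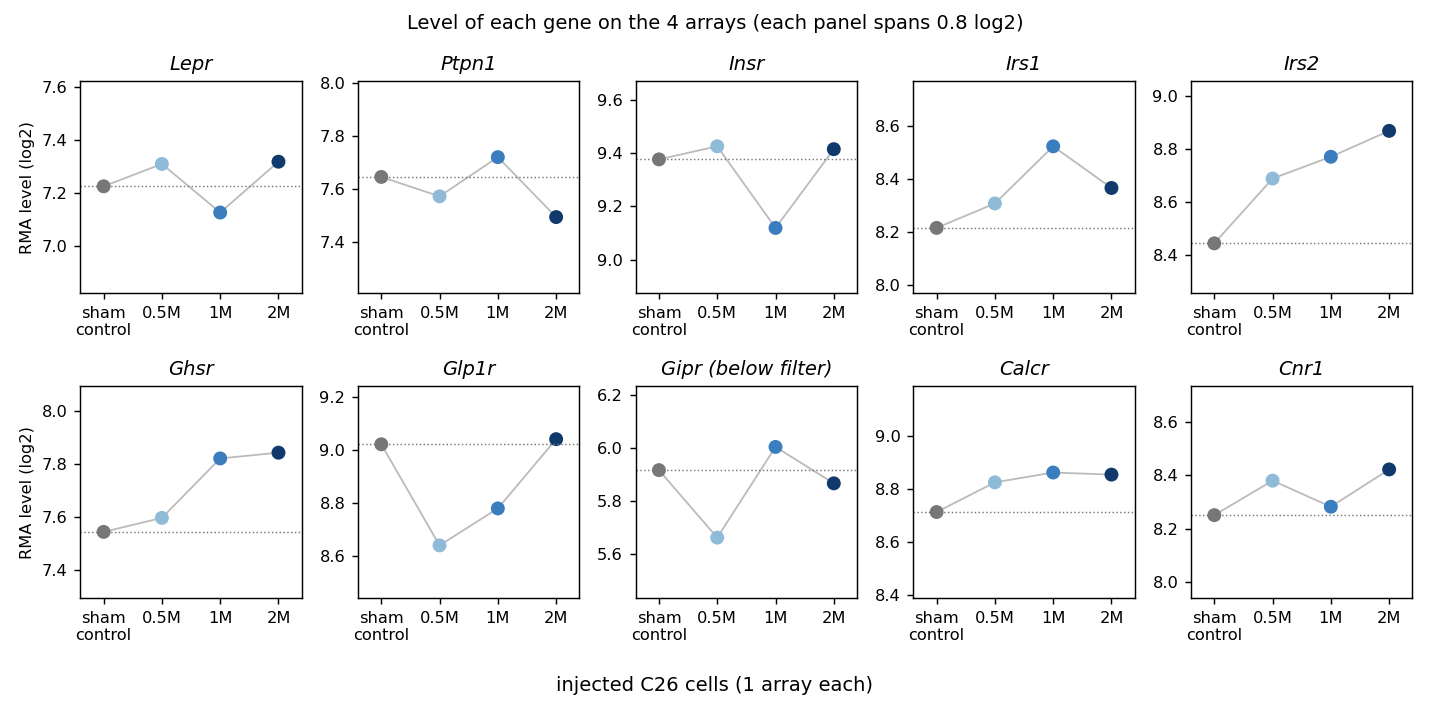
RMA level in log2 (vertical axis, each panel spanning the same range of log2 units) of each of the 10 genes on the sham control array and on the arrays of mice given 0.5M, 1M and 2M C26 cells (horizontal axis), 1 point per array, with the control level dotted. Irs2 stands higher at each step, at 8.45, 8.69, 8.77 and 8.87 log2, and Glp1r is lowest at 0.5M, at 8.64 log2.

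Irs2, the adaptor that links insulin and IGF-1 receptors to phosphoinositide 3-kinase and that mice need in the hypothalamus for normal energy balance, showed the largest mean difference of the 10 genes. Its level was 8.45 log2 in control, 8.69 at 0.5M, 8.77 at 1M and 8.87 at 2M. The values stood in the order of injected cells, and all 3 tumour-bearing arrays were above control. The mean over them was 8.78 log2, against 8.45 in control, a difference of 0.33 ± 0.09 log2 (SD, n = 3 arrays), or 1.26-fold. It did not pass limma (SE 0.11, 95% interval 0.08 to 0.58 before adjustment, adjusted p = 0.383). That mean difference was larger than those of 93.5% of tested genes. The slope of 0.19 ± 0.07 log2 per 1000000 cells (SE) did not pass either (limma adjusted p = 0.753), and the single 2M animal carries most weight in it. An increase at each step from control through 0.5M and 1M to 2M was seen in 2 of the 9 genes (22.2%), Irs2 and Ghsr, beside 5.22% of tested genes.

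Irs1, the other main insulin receptor substrate, was 8.21 log2 in control, 8.31 at 0.5M, 8.52 at 1M and 8.36 at 2M. The 1M array was highest and control lowest. The difference was 0.18 ± 0.11 log2 (SD, n = 3 arrays), with an interval of -0.09 to 0.46 (limma adjusted p = 0.575). Without the 1M array it was 0.12 log2. A second probe set of Irs1, far below the filter at 4.79 log2 in control, differed by -0.09, 0.35 and 0.10 log2 at 0.5M, 1M and 2M, also highest at 1M.

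The stretches before the starts of Irs2 and Irs1 are shown because both genes were above control on all 3 arrays and their promoters share a pair of short motifs. Both come from the RefSeq promoter table of GRCm38.p6, which held windows for 8 of the 10 genes, Insr and Gipr being the others. Each is the 130 bases before the transcription start, 5′ to 3′ on the gene's strand, which is the minus strand for both, at chr8:11008930-11009059 for Irs2 and chr1:82291440-82291569 for Irs1. Capitals mark CACGTG, an E-box, and TGTTTTG, which is the insulin response element core CAAAACA read on the opposite strand and is the kind of site FOXO1 binds.
Irs2: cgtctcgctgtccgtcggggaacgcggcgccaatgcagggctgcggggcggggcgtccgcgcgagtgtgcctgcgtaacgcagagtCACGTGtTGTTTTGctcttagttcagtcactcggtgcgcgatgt
Irs1: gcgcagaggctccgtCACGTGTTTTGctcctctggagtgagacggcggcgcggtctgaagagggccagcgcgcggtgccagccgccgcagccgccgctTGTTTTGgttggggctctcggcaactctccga
In Irs2 the E-box begins 44 bases before the start and the other motif 37. In Irs1 they begin 115 and 111 bases before it and overlap, and a further TGTTTTG begins 32 bases before it. Both strands of 32851 windows of 300 bases were searched. CACGTG was found in 7.15% of them, CAAAACA in 6.28% and both together in 0.408%. Of the 12 windows of the genes described here, CACGTG was found in those of Irs1, Irs2 and 1 of Cnr1, and CAAAACA in those of Irs1, Irs2 and 1 of Lepr. The letters GTAAACA, TTCNNNGAA and TGACGTCA occurred in 0 of the 12, beside 3.65%, 8.3% and 1.79% of all windows. Among 46 tested genes with CACGTG and CAAAACA in 1 window, Irs1 and Irs2 included, 19 (41.3%) were above control on all 3 arrays, and their median difference was 0.03 log2, beside 33.3% and 0.01 log2 of the 9566 tested genes with a window. Without Irs1 and Irs2, which prompted the search, 17 of 44 (38.6%) were above control on all 3 arrays and 11 below. In limma 0 of the 46 were called, and 2 (4.35%) reached an unadjusted p below 0.05 in the tumour comparison, beside 10.3% of the tested genes with a window. The motifs were chosen after these sequences and values were seen, and a match is no evidence of binding.

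Insr, the insulin receptor tyrosine kinase itself, gave different readings on its 2 probe sets. The probe set with the higher mean, 10576692, read 9.38 log2 in control, 9.43 at 0.5M, 9.12 at 1M and 9.42 at 2M. Only 1M stood apart, at -0.26 log2 from control, and the mean difference was -0.06 ± 0.17 log2 (SD, n = 3 arrays; interval -0.40 to 0.29; limma adjusted p = 0.904). The other, 10576696, read 8.67 log2 in control, 8.87 at 0.5M, 8.92 at 1M and 8.91 at 2M. On it all 3 tumour-bearing arrays were above control, by 0.23 ± 0.03 log2 (SD, n = 3 arrays; limma adjusted p = 0.444 with this probe set in place of the first). At 1M the 2 probe sets therefore differed from control in opposite directions, by -0.26 and 0.25 log2. Which part of the transcript each covers was not examined, and no direction is given for Insr.

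**Figure D2:**
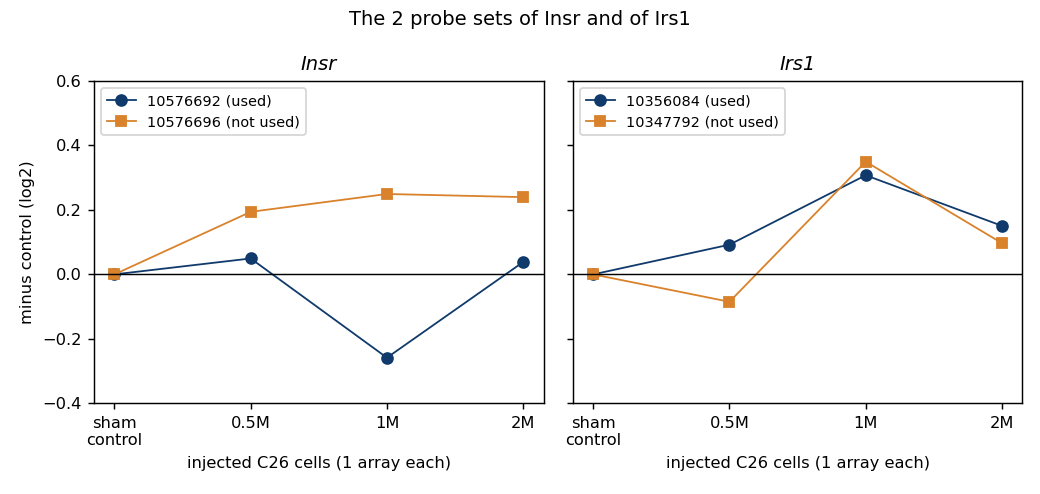
Difference from the control array in log2 (vertical axis) for both probe sets of Insr (left) and of Irs1 (right) on the sham control, 0.5M, 1M and 2M arrays (horizontal axis), 1 point per array. The probe sets of Insr part at 1M, at -0.26 and 0.25 log2, whereas both probe sets of Irs1 are highest there, at 0.31 and 0.35 log2.

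Of 23 other measured genes of insulin and IGF-1 signalling, 22 were tested, and 0 rose and 0 fell in limma in either test. An unadjusted p below 0.05 was reached by 2 in the tumour comparison and 1 in the trend, beside 10.8% and 6.52% of all. Above control on all 3 arrays were 11 of the 22 and below it 4, beside 33.4% and 27.3% of all tested genes. The median was 0.04 log2, beside 0.01 for all tested genes. The regulatory subunits of phosphoinositide 3-kinase had opposite signs. Pik3r2 was 0.27 ± 0.10 log2 from control (SD, n = 3 arrays), while Pik3r3 was -0.28 ± 0.12 and Pik3r1 -0.20 ± 0.11. Ptprf, a receptor phosphatase that can act on the insulin receptor, stood at 0.29 ± 0.09 log2, and Grb14, an adaptor that inhibits the insulin receptor, at -0.18 ± 0.18. Igf1r, the IGF-1 receptor, was above control by 0.10 log2 at 0.5M, 0.13 at 1M and 0.21 at 2M. Foxo1, the transcription factor that insulin signalling keeps out of the nucleus, was 0.16, 0.15 and 0.17 log2 above it. None of these differences passed limma, with adjusted p from 0.413 for Ptprf to 0.666 for Grb14.

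Lepr, the leptin receptor, lay close to control. It read 7.22 log2 in control, 7.31 at 0.5M, 7.13 at 1M and 7.32 at 2M. The 1M array was lowest, control lay between, and the mean difference was 0.03 ± 0.11 log2 (SD, n = 3 arrays; interval -0.24 to 0.30; limma adjusted p = 0.948). The sign of this difference turned when the 0.5M or the 2M array was left out. A single probe set reads Lepr, so its long signalling form and its short forms were not told apart. Leprot, whose gene overlaps that of Lepr, was 0.11, 0.16 and 0.11 log2 above control, and any signal the 2 genes share was not separated.

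Ptpn1 encodes PTP1B, which dephosphorylates JAK2 and the insulin receptor. It read 7.64 log2 in control, 7.57 at 0.5M, 7.72 at 1M and 7.49 at 2M. Values fell on both sides of control, and the difference of -0.05 ± 0.11 log2 (SD, n = 3 arrays) had an interval of -0.33 to 0.23 (limma adjusted p = 0.893). Without the 2M array it was 0.00076 log2. Ptpn2, the related phosphatase that acts on JAK and STAT proteins, was -0.08 log2 from control at 0.5M and -0.42 at both 1M and 2M (mean -0.30 ± 0.20; limma adjusted p = 0.507).

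Of 11 tested leptin signalling genes, 4 were above and 4 below control on all 3 arrays, beside 33.4% and 27.3% of all tested genes. The median of the 11 was -0.0035 log2, and 0 rose and 0 fell in limma in either test. An unadjusted p below 0.05 was reached by 0 in the tumour comparison and 1 in the trend, beside 10.8% and 6.52% of all. Socs3, the feedback inhibitor that STAT3 induces, was 6.54 log2 in control, 6.68 at 0.5M, 7.09 at 1M and 6.94 at 2M. Its mean difference was 0.36 ± 0.20 log2 (SD, n = 3 arrays; limma adjusted p = 0.466). Socs1, a related inhibitor, stood at 0.06, 0.45 and 0.32 log2 and Stat5a at 0.07, 0.31 and 0.28. Both were furthest above control at 1M, as was Socs3. The kinase gene Jak2 and the transcription factor gene Stat3 had mean differences of -0.03 ± 0.13 and 0.00 ± 0.09 log2.

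Ghsr, the ghrelin receptor of arcuate feeding neurons and of the pituitary and midbrain, was 7.54 log2 in control, 7.60 at 0.5M, 7.82 at 1M and 7.84 at 2M. The 1M and 2M arrays were high and close together, and 0.5M was near control. The difference was 0.21 ± 0.14 log2 (SD, n = 3 arrays), 1.16-fold, with an interval of -0.09 to 0.51 (limma adjusted p = 0.56). The slope was 0.16 ± 0.07 log2 per 1000000 cells (SE; limma adjusted p = 0.761). Mrap2, an accessory protein of this receptor, was 0.10, 0.15 and 0.06 log2 above control. Gpr39, a relative of Ghsr below the filter, was 0.18, 0.44 and 0.48 log2 above it. Of 8 measured pituitary markers, 4 of them below the filter, 7 were above control on all 3 arrays, beside 33.4% of all tested genes. The mean level of the 8 was 7.34 log2 at 0.5M, 6.47 at 1M and 6.34 at 2M, against 6.10 in control. The high mean at 0.5M came with Gh and Prl, and the medians given above were close on the 3 arrays. Of 9 measured midbrain and hindbrain markers, 5 did not reach the filter. Below control on all 3 arrays were 6 of the 9 and above it 0, beside 27.3% and 33.4% of all tested genes. The mean levels of these markers were 6.95, 6.81 and 6.90 log2, against 7.22 in control. Their part in the level of Ghsr was not tested.

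Glp1r, the GLP-1 receptor, had the lowest mean difference of the 9 tested genes. It read 9.02 log2 in control, 8.64 at 0.5M, 8.78 at 1M and 9.04 at 2M. At 0.5M it lay at -0.38 log2 from control, below the central 95% of tested genes, while the 2M animal was at the control level. Its levels therefore ran upward from 0.5M to 2M, by 0.40 log2, and the mean difference of -0.20 ± 0.20 log2 (SD, n = 3 arrays; interval -0.58 to 0.18) did not pass limma (adjusted p = 0.652). Without the 0.5M array it was -0.11 log2, and without the 2M array -0.31. Gipr, the GIP receptor, read 5.92 log2 in control, 5.66 at 0.5M, 6.005 at 1M and 5.87 at 2M. Like Glp1r it was lowest at 0.5M, and its mean difference was -0.07 ± 0.17 log2 (SD, n = 3 arrays). It is below the filter, and in limma without the filter its adjusted p was 0.925.

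Genes of circulating ligands and of their processing enzymes were mostly dim. Gcg, which encodes the GLP-1 precursor, was above control by 0.19 log2 at 0.5M, 0.52 at 1M and 0.39 at 2M. Dpp4, the peptidase that inactivates GLP-1 and GIP, differed from it by -0.50, -0.20 and -0.30 log2. Both lay below the filter and were not tested in the main setting. Of 12 measured ligand genes and their processing enzymes, only 3 passed the filter, and of these 0 rose and 0 fell in limma. None of the 3 reached an unadjusted p below 0.05, beside 10.8% of all tested genes in the tumour comparison and 6.52% in the trend. Igf1, the insulin-like growth factor gene, differed from control by -0.21, -0.30 and -0.09 log2.

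Calcr, the calcitonin receptor, which forms amylin receptors with RAMP proteins, varied least among the tumour-bearing arrays. It was 8.71 log2 in control, 8.82 at 0.5M, 8.86 at 1M and 8.85 at 2M. All 3 were above control and within 0.04 log2 of each other. The difference was 0.13 ± 0.02 log2 (SD, n = 3 arrays), 1.10-fold, with an interval of -0.08 to 0.35 (limma adjusted p = 0.601). This SD leaves out the error of the single control array. Ramp2 was 0.25, 0.37 and 0.27 log2 above control, Ramp1 0.27, 0.22 and 0.00, and Ramp3, below the filter, 0.17, 0.57 and 0.24. Calcrl, the partner of the RAMP proteins in CGRP and adrenomedullin receptors, differed from control by -0.17, -0.63 and -0.31 log2. The list of class B receptors and accessory proteins also held Mrap2 and the receptors Gpr39, Ntsr1 and Ntsr2, which are not of class B. Of its 12 tested genes, 5 were above control on all 3 arrays, beside 33.4% of all tested genes. Below it were 4, beside 27.3%, and the median was 0.09 log2. In limma 0 rose and 0 fell in either test. An unadjusted p below 0.05 was reached by 3 in the tumour comparison and 2 in the trend, beside 10.8% and 6.52% of all. Vipr2, a receptor for VIP and PACAP, was furthest above control among the 12, at 0.39 ± 0.08 log2 (SD, n = 3 arrays; limma adjusted p = 0.375). Ghrhr, the growth hormone-releasing hormone receptor, was 0.36 ± 0.06 log2 above control and is also one of the pituitary markers given above.

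Cnr1, the main cannabinoid receptor of neurons, through which endocannabinoids favour feeding, was 8.25 log2 in control, 8.38 at 0.5M, 8.28 at 1M and 8.42 at 2M. The 1M array was nearly level with control and the others slightly above. The difference was 0.11 ± 0.07 log2 (SD, n = 3 arrays; interval -0.13 to 0.35; limma adjusted p = 0.697). Striatal neurons, which carry much Cnr1, were represented by 8 tested markers. Above control on all 3 arrays were 4 of them and below it 0, beside 33.4% and 27.3% of all tested genes. The mean level of the 8 markers was 9.45 log2 at 0.5M, 9.09 at 1M and 9.13 at 2M, against 9.05 in control. Their part in the level of Cnr1 was not tested. Of 9 tested endocannabinoid genes 0 were above and 4 below control on all 3 arrays, beside 33.4% and 27.3% of all tested genes. The median of the 9 was -0.04 log2, and 0 rose and 0 fell in limma in either test. None reached an unadjusted p below 0.05, beside 10.8% of all tested genes in the tumour comparison and 6.52% in the trend. Daglb, which makes 2-arachidonoylglycerol, differed from control by -0.18, -0.12 and -0.27 log2. Abhd12, which breaks it down, differed by -0.03, -0.27 and -0.26 log2. Mgll, the main enzyme to do so, stood at 0.28 log2 from control at both 0.5M and 1M and at -0.10 at 2M.

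**Figure D3:**
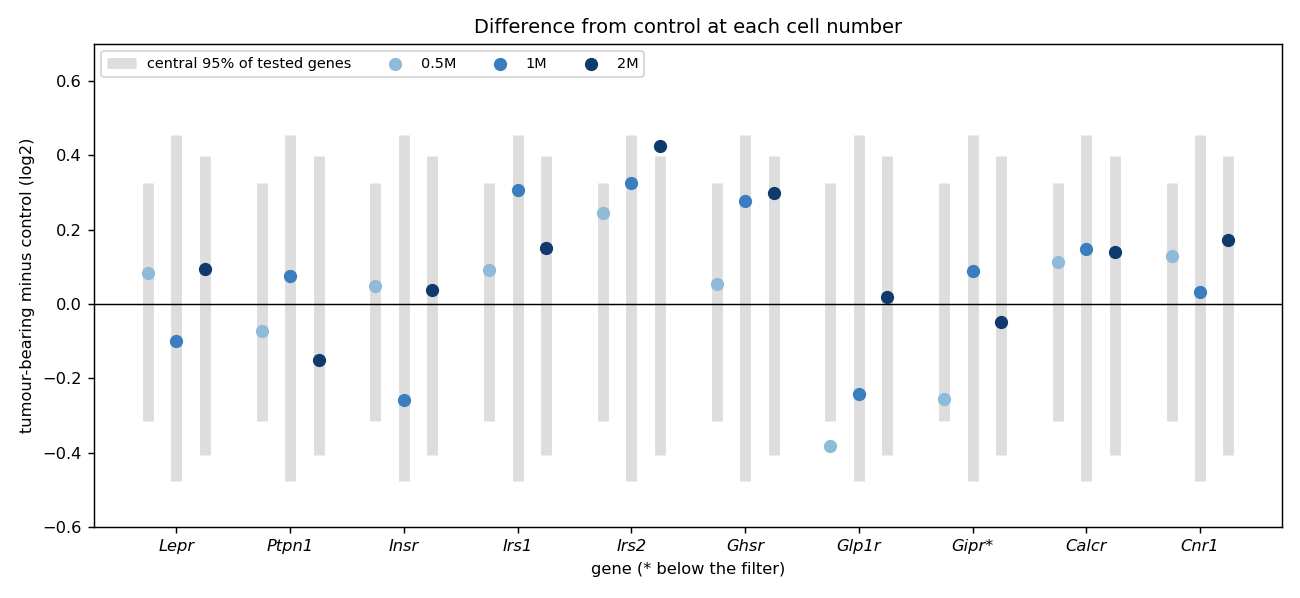
Difference from the control array in log2 (vertical axis) of each of the 10 genes (horizontal axis) at 0.5M, 1M and 2M, 1 point per array, over grey bars for the central 95% of all tested genes on that array. Glp1r at 0.5M (-0.38 log2) and Irs2 at 2M (0.42 log2) lie outside the bars.

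**Figure D4:**
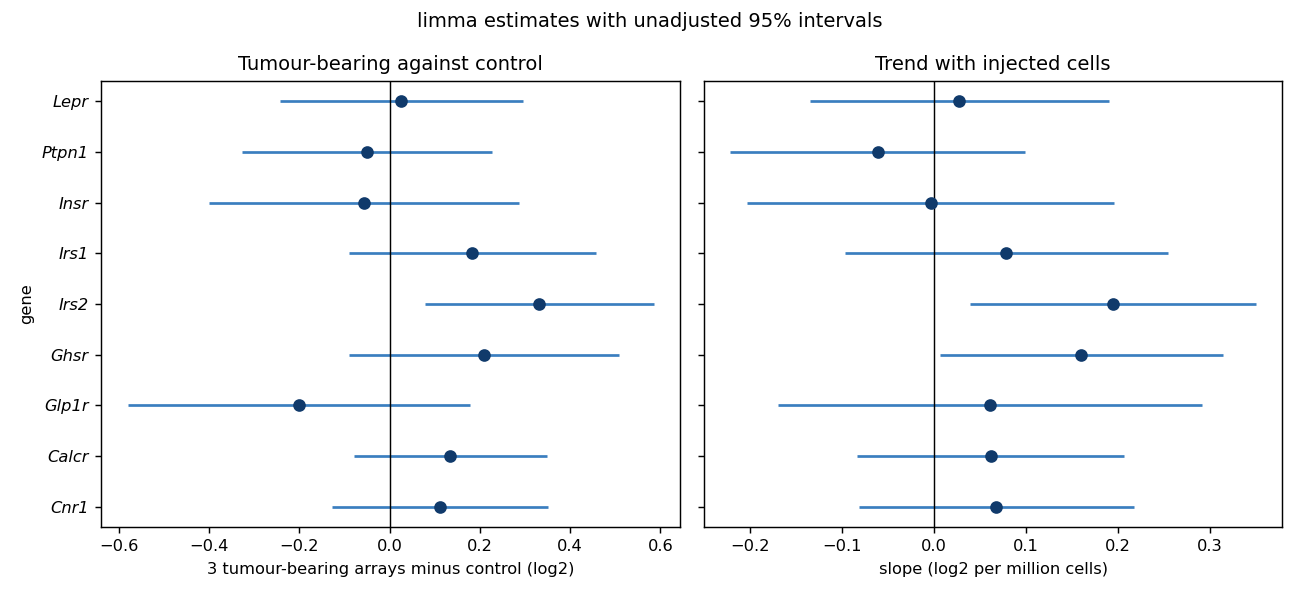
limma estimates for the 9 tested genes with unadjusted 95% intervals, for the mean of the tumour-bearing arrays minus control in log2 (left) and for the slope in log2 per 1000000 injected cells (right). The interval of Irs2 leaves out 0 in both panels and that of Ghsr in the right one, and none passed after adjustment, the lowest adjusted p being 0.383 on the left and 0.753 on the right.

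Genes known to respond to STAT3 or FOXO1, among them the feeding peptides downstream of these receptors, held 2 of the 6 called genes. Of the 10 tested genes of this list, Lcn2 and Osmr rose in the tumour comparison by limma and 0 fell. An unadjusted p below 0.05 was reached there by 3, beside 10.8% of all tested genes. In the trend 0 were called, with 5 at an unadjusted p below 0.05, beside 6.52% of all tested genes. Lcn2, the secreted lipocalin, was 2.51, 2.21 and 2.80 log2 above control and Osmr, the oncostatin M receptor, 1.02, 1.07 and 1.09 (limma adjusted p = 0.0327 each). Both genes were known from earlier results of these arrays when the list was made, and both are among the 3 and the 5. Neither the 2 genes nor these counts are therefore independent evidence. Pdk4, a FOXO1 target that restrains pyruvate oxidation, was 0.40, 0.49 and 0.67 log2 above control, in the order of injected cells as Irs2 was (limma adjusted p = 0.375). Npy, the orexigenic peptide of ghrelin-responsive arcuate neurons, was 0.41, 0.20 and 1.41 log2 above control, and Pomc, the precursor of the anorexigenic alpha-MSH, differed by -0.20, -0.21 and -0.46 log2. Neither passed limma in the tumour comparison (adjusted p = 0.582 and 0.476) or in the trend (limma adjusted p = 0.380 and 0.682). Both were among the 5 with an unadjusted p below 0.05 in the trend, in which the single 2M animal carries most weight. Of 9 measured arcuate markers, 3 did not reach the filter. Above control on all 3 arrays were 2 of the 9 and below it 3, beside 33.4% and 27.3% of all tested genes.

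**Figure D5:**
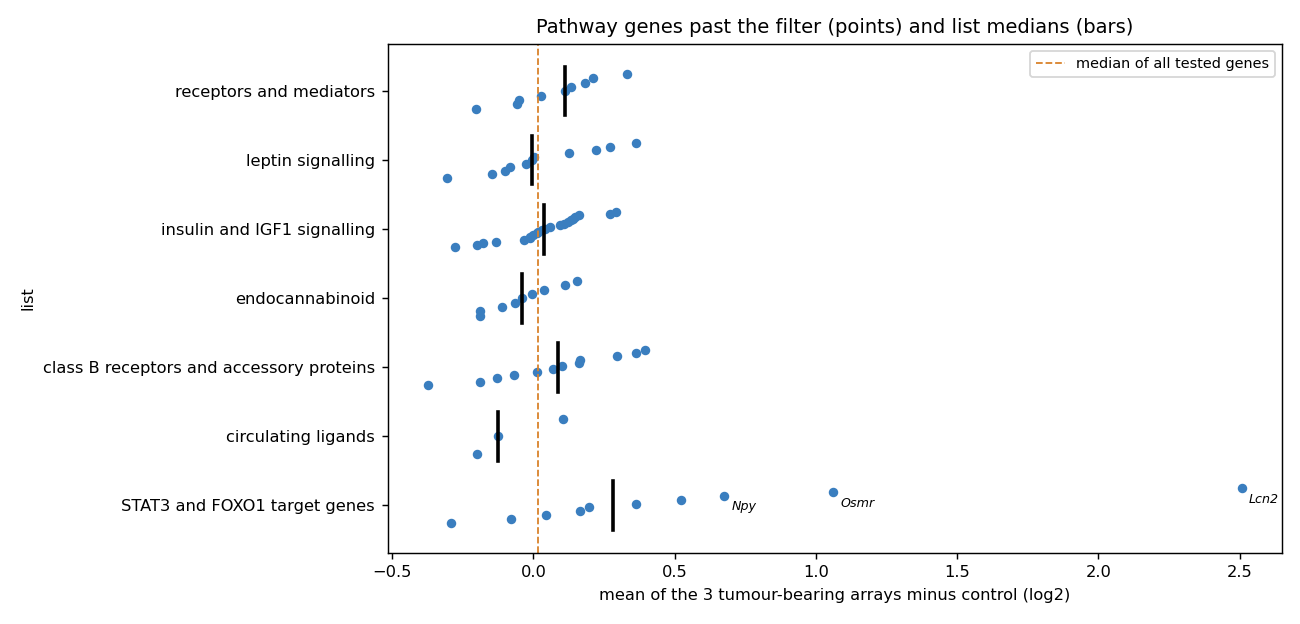
Mean of the tumour-bearing arrays minus control in log2 (horizontal axis) for tested genes of each list (rows), 1 point per gene, with list medians as black bars and the median of all tested genes dashed. Lcn2 at 2.51 and Osmr at 1.06 log2 stand far from the receptors and mediators, whose median is 0.11 log2.

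By the distance between their differences from control, the tested genes closest to Irs2 over the 3 tumour-bearing arrays were Lrrc8a (0.22, 0.34 and 0.42 log2), Washc3 and Scnm1, at 0.02, 0.03 and 0.03 log2. Within 0.1 log2 of Irs2 lay 75 tested genes. The pattern of Glp1r was rarer, with 1 gene within that distance, Osr1 (-0.35, -0.17 and -0.01 log2). Car13 and Gpr182 followed at 0.10 and 0.11 log2. The first probe set of Insr had 116 such genes, led by Taf2, Tnpo1 and Tardbp, each between -0.28 and -0.25 log2 from control at 1M.

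Markers of the other cells that carry these receptors are given as measured, and their part in any value above was not tested. Of all tested genes, 33.4% were above control on all 3 arrays and 27.3% below. The counts here are of measured markers, some of them below the filter. Choroid plexus markers, whose cells express Lepr, were above control on all 3 arrays in 0 of 9 cases and below in 4, at mean levels of 6.83, 6.89 and 6.90 log2 at 0.5M, 1M and 2M, against 6.95 in control. Tanycyte markers were above in 2 of 11 and below in 3, at 7.40, 7.44 and 7.42 log2, against 7.45 in control. Endothelial and mural markers were above in 5 of 12 and below in 5, at 8.04, 8.01 and 8.02 log2, against 8.04 in control. Markers of ventromedial, paraventricular and lateral hypothalamic neurons were above in 5 of 10 and below in 1, at 8.44, 8.51 and 8.58 log2, against 8.35 in control. Thalamic and cortical markers were above in 2 of 8 and below in 2, microglial and macrophage markers above in 0 of 9 and below in 5, astrocyte markers above in 1 of 7 and below in 2, and oligodendrocyte markers above in 2 of 7 and below in 1. Blood cell markers were above in 4 of 7 and below in 0, led by the platelet gene Ppbp at 1.25 ± 0.19 log2 (SD, n = 3 arrays). On this log2 scale no marker has a true zero.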

How the data were processed

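The deposited values are log2 expression per probe set. The authors made them with RMA, according to the submitters' processing notes. This method equalizes the intensity distributions of arrays, so a change common to all transcripts is removed. For its version and the arrays it covered, nothing is given in the sources used here. Per the labels, 100 ng of RNA with an integrity number above 8 went on each array. The table held 35556 probe sets. Platform annotation gave 1 symbol to 21789, several to 1621 and none to 12146, and all 10 genes matched the reference table by Entrez number. The probe set with the highest mean stood for its gene. Two-sided limma 3.58.1 tests (R 4.3.3, Benjamini-Hochberg, threshold 0.05) set 3 tumour-bearing arrays against the lone control, or fitted a slope on injected cells, with 2 residual degrees of freedom. The spread is that between cell numbers, the lone control is assumed to vary like the other arrays, and a step from control can also give a slope. limma was checked on simulated data with changes larger than those of the 10 genes. That check does not cover differences of their size. Python 3.11.15 was used for the rest. The genes, lists and alternatives were chosen with earlier results of these data known. Genes are named by a rule: the 10 members, up to 5 genes per pathway list and 3 per marker list with the largest mean difference, 14 pathway genes in any case and the 3 genes nearest in pattern. Of the 14, Agrp was not among the genes measured. Not every gene that the rule allows is printed, so a marker left out need not have a smaller difference. Other markers named for the tissue check follow no rule. Alternatives were the filter, the probe set, cyclic loess, median centring, an intensity trend and leaving out each tumour-bearing array. Precision is limited by the number of arrays.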

Additional observations from a re-analysis of the deposited data

Results flagged for a closer look

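The second probe set of Insr, 10576696, which the comparisons do not use, was above control on all 3 tumour-bearing arrays, at a mean of 0.23 log2. It was flagged because it stood above control on all 3, so that trait adds no evidence. The probe set that stood for the gene averaged -0.06 log2. In limma, the second probe set had an unadjusted p of 0.0419 and an adjusted p of 0.444. Of all tested genes, 10.8% had an unadjusted limma p below 0.05 in the tumour comparison. The reason for the disagreement was not tested.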

How the results depend on the processing

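None of the 10 genes passed limma in those of the 19 alternative settings over both tests in which it was tested. Gipr was tested only without the filter, and Lepr, Ghsr and Ptpn1 were not tested with the 60th percentile filter. The number of genes called in the tumour comparison was 6, and it was 1 without the filter, 2 with the 60th percentile filter and 3 to 6 with 1 tumour-bearing array left out, the lowest without the 1M array. In the trend it was 0, and 0 to 58 with 1 array left out (38 without 0.5M, 58 without 1M, with 1 residual degree of freedom). At 0.3 log2 in place of 0.5, 1, 2 and 1 of the 10 genes qualified at 0.5M, 1M and 2M. Of 78 recomputed mean differences, 70 kept their sign and 8 turned it, and none of those tested crossed the threshold. A filter cannot change a mean difference, and averaging probe sets can change only those of Insr and Irs1. The kept signs of the other differences in these settings were therefore fixed in advance. Lepr was -0.013 log2 with cyclic loess and -0.0073 to 0.089 with 1 array left out. Insr was 0.085 with its probe sets averaged, 0.23 with the other probe set, an alternative chosen after seeing the data, and -0.11 to 0.044 with 1 array left out. Ptpn1 was -0.11 to 0.00076 with 1 array left out. Glp1r ranged from -0.31 to -0.11 and Irs2 from 0.29 to 0.38 (limma adjusted p 0.275 to 0.806). Gipr, which was not tested, was 0.019 without the 0.5M array, a move within its SD. Irs1 was 0.12 to 0.23 with 1 array left out, the lowest without 1M. Apart from arrays left out and probe sets exchanged, the cause was not tested. No paired analysis was possible because each group has 1 array.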
